A study of Mus musculus with 6 samples.

Results

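The genes described here are 34 genes of the tricarboxylic acid (TCA) cycle, of anaplerosis and of glutamine use, chosen by gene symbol from a list. All 34 were among the 55536 genes with deposited counts, and all 34 were among the 15374 genes kept by the filter on low counts. RNA was sequenced from orthotopic tumors of HCA-1, a murine hepatocellular carcinoma (HCC) cell line grown from cells injected under the liver capsule of male C3H mice (C3H/HeNCrNarl in the methods) aged 6 to 8 weeks. Tumors of 3 untreated mice (controls 5, 6 and 7) were compared with tumors of 3 mice that received GOx-DOX-LGP (treated tumors 1, 2 and 5), a nanogel carrying glucose oxidase (GOx), which consumes glucose and yields hydrogen peroxide, together with doxorubicin (DOX). No group with empty nanogel or with a single cargo was sequenced in the libraries used here, so nanogel, GOx and DOX cannot be told apart. The labels give intravenous doses on days 18, 19 and 20 but place the RNA analysis on day 17 after 3 h of circulation, and the methods place the harvest on the day after the last dose. All tumors came from 1 cell line, and the tissue around the tumor is liver.

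The TCA cycle oxidises acetyl groups in mitochondria and passes the electrons to the respiratory chain. Anaplerosis refills the cycle when intermediates leave it for synthesis: pyruvate carboxylase supplies oxaloacetate from pyruvate, and glutaminase followed by glutamate dehydrogenase or an aminotransferase supplies 2-oxoglutarate from glutamine. Hepatocytes use these enzymes heavily for gluconeogenesis, ureagenesis and nitrogen handling, with Gls2 as the liver form of glutaminase. Proliferating cells typically take up glutamine through Slc1a5 and members of the Slc38 family.

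Levels of the genes were higher in controls 6 and 7 than in control 5 and all treated tumors for most of the list, and control 5 lay close to the treated tumors. Values are CPM, that is, counts scaled to library size, after TMM normalization, which also corrects for composition, and are always given in the order controls 5, 6 and 7, then treated tumors 1, 2 and 5. Total counts lay between 15529940 and 18401178 and TMM factors between 0.569 and 1.24. A count of 3, taken as the floor for counting error, corresponds to 0.132 to 0.323 CPM. Counts of the 34 genes made up 0.345%, 0.613% and 0.691% of the controls and 0.358%, 0.321% and 0.346% of the treated tumors. The share was thus larger in controls 6 and 7 than in any other library, and the share of control 5 lay within the treated range. The widest of the 95% Wilson intervals, that of control 7, ran from 0.687% to 0.695% and covers counting error only.

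Hepatocyte markers differed between the same libraries. The summed level of 17 hepatocyte markers (of 18 listed) was 808, 150993 and 236854 CPM in the controls and 4279, 1737 and 2407 CPM in the treated tumors. Albumin (Alb), the main plasma protein of hepatocytes, was at 353, 73804 and 128244 CPM and at 1893, 733 and 1061 CPM. Ttr and Apoa1, a thyroxine carrier and a lipoprotein component made by hepatocytes, were likewise highest in controls 6 and 7, and 17 of 17 markers were higher in controls 6 and 7 than in the other 4 libraries, with none at 0 counts in any library. Of 6 proliferation markers, 6 were lower in controls 6 and 7 than in the other 4 libraries, as were 8 of 13 leukocyte markers and 3 of 8 markers of stroma and endothelium, while 2 leukocyte markers and 4 stromal markers were higher there. The part of these markers in the results below was not tested. Fits given below with a score of the hepatocyte markers cannot decide it, because that score splits the libraries in the same way. In bulk tissue, fewer cells of a type and less RNA per cell cannot be told apart.

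**Figure D1:**
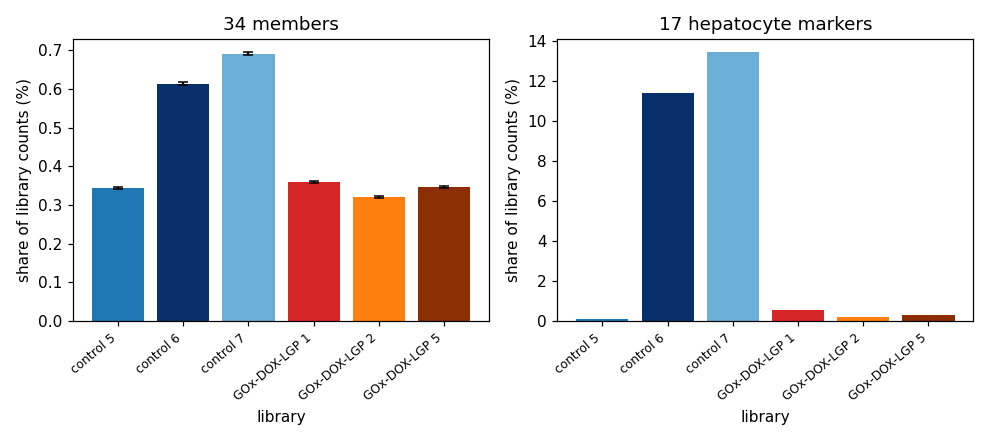
Share of each library's counts, in percent, taken by the 34 genes (left, with 95% Wilson intervals) and by 17 hepatocyte markers (right), with 1 bar per library. Controls 6 and 7 stand above the other 4 libraries in both panels, at 0.613% and 0.691% for the 34 genes and 11.4% and 13.4% for the markers.

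Across the 34 genes, the median log2 fold change of treated over control tumors was -1.07, beside 0.02 over all genes tested. The fold change was negative for 28 genes and positive for 6, and 48.9% of all genes had a negative value. With library totals as the only scaling, which shifts the median of all genes to 0.51, the split was 23 negative and 11 positive and the median of the 34 genes -0.31, which is still below that of all genes. No gene passed an adjusted p of 0.05 in edgeR's quasi-likelihood test (0% of all genes, smallest adjusted p of any gene 0.247), and the adjusted p of the 34 genes ran from 0.247 to 0.993. At an unadjusted p under 0.05, 16 genes were lower and 0 higher in treated tumors, beside 14.6% of all genes lower and 2.87% higher. Without control 5, 26 genes were lower and 5 higher, beside 28.3% and 27.2% of all genes. The lower genes numbered 7 without control 6 (7.27% of all genes) and 6 without control 7 (6.8%), and 5, 2 and 3 without treated tumors 1, 2 and 5 (6%, 4.78% and 3.17%). The groups did not overlap for 5 genes that were lower in treated tumors (Ogdh, Dlst, Sdha, Me1 and Gpt2) and 2 that were higher (Me3 and Slc1a5). Of all genes, 8.31% were lower and 8.87% higher without overlap, so the 2 of 34 genes on the higher side were no more frequent than the background. Of the 7 genes, Me1, Me3 and Slc1a5 also showed no overlap under library totals, upper quartile and DESeq2 size factors, whereas the other 4 overlapped under at least 1 of these scalings. Without control 5, 26 of the 34 genes were lower and 5 higher without overlap, beside 35.3% and 36.8% of all genes. An exact permutation test on 3 against 3 libraries cannot give a p below 0.1, which is the value of each of these 7 genes.

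The differences within the control group were larger than those between control 5 and the treated tumors. Controls 6 and 7 both exceeded the other 4 libraries in 26 genes (32.9% of all genes) and both lay below them in 5, namely Pck2, Me2, Me3, Slc1a5 and Slc38a1 (35.4% of all genes). Cs, Idh3a and Slc38a2 showed neither pattern. The mean of controls 6 and 7 was between 0.248 (Pck2) and 108 (Pcx) times the value of control 5, with a median of 3.08. Control 5 differed from the mean of the treated tumors by less than 0.5 on the log2 scale in 32 of 34 genes, with a range from -0.93 (Pcx) to 0.46 (Slc38a2) and a median of -0.03. It lay within the range of the treated tumors in 14 genes, beside 45.6% of all genes.

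**Figure D2:**
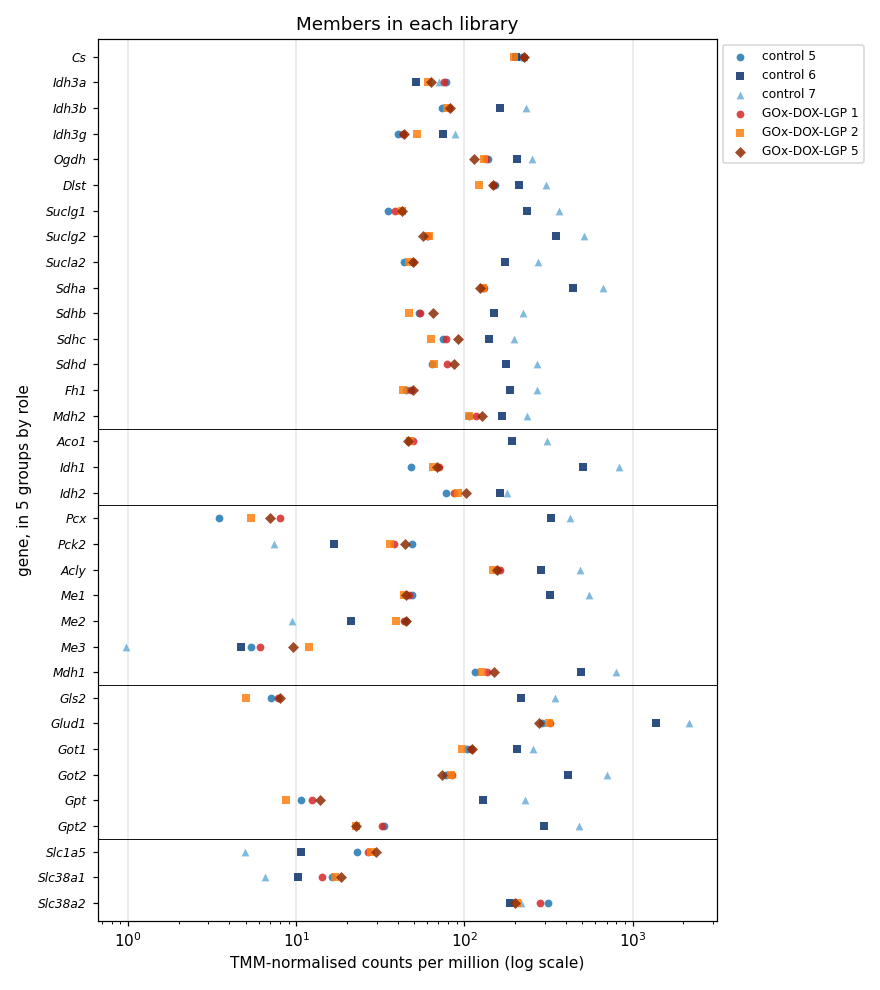
Level of each of the 34 genes in each library, as TMM-normalised CPM on a log axis, with 1 point per library and horizontal lines between the 5 groups by role. Controls 6 and 7 lie to the right of the other 4 libraries in 26 genes and to the left in 5, and control 5 lies among or near the treated tumors.

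Promoters of Pcx and Gpt2, high in controls 6 and 7, and of Cs, at about the same level in all libraries after TMM normalization, are shown so that genes with large and small differences can be compared by sequence. Each is the 250 bases before the RefSeq transcription start on assembly GRCm38.p6, read 5′ to 3′ on the gene's strand (all on the plus strand), for Pcx at chr19:4510222-4510471 (the upstream one of its 2 RefSeq promoters), Gpt2 at chr8:85492326-85492575 and Cs at chr10:128337477-128337726. Capitals mark matches to any of 6 motifs searched on both strands, and no matches of different motifs overlapped in these sequences. Gpt2 had no match, nor did the other Pcx promoter, at chr19:4594069-4594318, which is not printed.
Pcx: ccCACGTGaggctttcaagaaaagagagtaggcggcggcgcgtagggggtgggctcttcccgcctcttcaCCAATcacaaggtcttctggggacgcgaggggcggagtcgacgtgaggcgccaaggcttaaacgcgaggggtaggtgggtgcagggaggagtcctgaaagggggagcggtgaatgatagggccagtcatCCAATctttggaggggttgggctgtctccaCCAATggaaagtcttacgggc
Gpt2: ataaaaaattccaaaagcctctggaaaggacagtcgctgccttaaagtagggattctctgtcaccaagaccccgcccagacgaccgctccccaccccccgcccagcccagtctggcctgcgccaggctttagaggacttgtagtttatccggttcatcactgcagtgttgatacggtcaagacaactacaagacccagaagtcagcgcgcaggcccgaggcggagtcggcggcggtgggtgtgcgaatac
Cs: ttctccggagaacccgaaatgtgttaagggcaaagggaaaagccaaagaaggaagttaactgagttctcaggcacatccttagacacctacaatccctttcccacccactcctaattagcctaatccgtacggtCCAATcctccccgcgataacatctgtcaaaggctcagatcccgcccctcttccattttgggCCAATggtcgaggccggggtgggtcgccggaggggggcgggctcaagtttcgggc
The motifs were the E-box CACGTG, the ATF4 response element TGATGCAA, the estrogen-related receptor element TNAAGGTCA, the NRF1 core GCGCATGC, the CCAAT box CCAAT and the HNF1 half-site GTTAAT. RefSeq promoters were matched for 27 of the 34 genes, with 35 promoters in all, and Idh3a, Sdhc, Me2, Gls2, Gpt, Slc1a5 and Slc38a1 had no entry. The CCAAT box was in 48.6% of the 35 promoters and in 33.8% of all 32851 promoters, the printed ones of Pcx and Cs among them. The NRF1 core was in 11.4% of the 35 and 2.26% of all (promoters of Ogdh, Sdhb and Glud1), and the E-box in 11.4% and 6.02% (promoters of Ogdh and Pcx). Ogdh alone has several overlapping promoter entries, so counted by gene the E-box was in 2 and the NRF1 core in 3 of 27 genes. The ATF4 element was in 2.86% and 0.791% (Got1 alone), the HNF1 half-site in 5.71% and 6.43% (Me1 and Got2), and the estrogen-related receptor element in 0% and 1.14%. These are matches of letters in a window and say nothing of binding.

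The mitochondrial cycle was represented by 15 genes, of which 14 had a negative fold change, with a median of -0.96 on the log2 scale and 6 at an unadjusted p under 0.05 (14.6% of all genes lower). That number was 13 without control 5 (28.3% of all genes lower), 1 without control 6 (7.27%) and 1 without control 7 (6.8%). It was 0 without treated tumor 1, 2 or 5 (6%, 4.78% and 3.17%). With a score of the hepatocyte markers as a covariate, a fit explained below with its limit, it was 1 (4.40% of all genes lower). Citrate synthase (Cs), which joins acetyl-CoA to oxaloacetate at the entry of the cycle, was at 219, 201 and 225 CPM in the controls and at 224, 196 and 227 CPM in the treated tumors. All 6 libraries lay within a narrow range, and the log2 fold change was 0.01 ± 0.22 (SE, n = 3 per group, edgeR adjusted p = 0.987), with a sign that flips under DESeq2 size factors and a value of 0.53 under library totals. The regulated step after aconitase, NAD-dependent isocitrate dehydrogenase, is built from the catalytic subunit Idh3a and the subunits Idh3b and Idh3g. Idh3a was at 78.0, 51.3 and 70.6 CPM and at 75.2, 60.6 and 63.6 CPM, with overlapping groups and a log2 fold change of -0.00 ± 0.23 (edgeR adjusted p = 0.993), positive under library totals and upper quartile scaling. Idh3b, in contrast, was at 73.6, 163 and 232 CPM and at 80.5, 78.3 and 81.7 CPM, high in controls 6 and 7 alone. Idh3g gave 40.4, 74.8 and 88.0 CPM and 43.4, 52.4 and 44.0 CPM, its fold change of -0.54 turning positive under library totals. Subunits of one enzyme therefore had different orders of libraries, with Idh3a lowest in control 6 and Idh3b and Idh3g highest in controls 6 and 7.

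The 2-oxoglutarate dehydrogenase complex, which makes succinyl-CoA, was represented by Ogdh (its first enzyme) and Dlst (its succinyltransferase). Ogdh was at 139, 204 and 252 CPM in the controls and at 134, 130 and 114 CPM in the treated tumors, and Dlst was at 151, 210 and 306 CPM and at 148, 122 and 149 CPM. In both genes every control exceeded every treated tumor, but control 5 did so by 0.14 and 0.12 on the log2 scale over the treated mean. Under library totals alone the groups of both genes overlapped, with log2 fold changes of -0.019 and -0.014. After TMM, the log2 fold changes were -0.66 ± 0.29 and -0.67 ± 0.32 (SE), with adjusted p of 0.305 and 0.334 in edgeR.

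Succinyl-CoA ligase, the step that yields a nucleoside triphosphate, was high in controls 6 and 7 in all its subunits. Its shared alpha subunit Suclg1 was at 34.9, 237 and 363 CPM and at 38.6, 42.3 and 42.3 CPM, a log2 fold change of -2.36 ± 0.78. Suclg2, the GTP-forming beta subunit, was at 59.9, 350 and 516 CPM and at 60.4, 61.9 and 57.0 CPM (-2.37 ± 0.74), and Sucla2, the ATP-forming beta subunit, at 43.8, 175 and 275 CPM and at 49.6, 46.6 and 49.2 CPM (-1.76 ± 0.63). The 4 libraries other than controls 6 and 7 differed little in each of these genes, and the adjusted p was 0.247, 0.247 and 0.25 in edgeR. Of the exon sequence of Suclg2, 16.0% of stretches of 50 bases also occur in Gm15163, so its count is less certain.

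Succinate dehydrogenase links the cycle to the respiratory chain as complex II, with the flavoprotein Sdha, the iron-sulfur subunit Sdhb and the membrane anchors Sdhc and Sdhd. Sdha was at 131, 443 and 667 CPM in the controls and at 130, 129 and 124 CPM in the treated tumors, with a log2 fold change of -1.70 ± 0.58 and an adjusted p of 0.247. Its groups did not overlap, although control 5 lay just above treated tumor 1. The other subunits had log2 fold changes of -1.36 (Sdhb), -0.82 (Sdhc) and -1.14 (Sdhd), and control 5 lay within the treated range for Sdhb and Sdhc and just below it for Sdhd. The closing steps are fumarate hydratase (Fh1) and mitochondrial malate dehydrogenase (Mdh2). Fh1 was at 45.2, 186 and 268 CPM and at 48.4, 43.1 and 49.1 CPM, whereas Mdh2 was at 106, 167 and 235 CPM and at 118, 106 and 128 CPM. The log2 fold change was -1.83 ± 0.62 for Fh1 and -0.53 ± 0.33 for Mdh2, the latter positive under library totals. The ratio of controls 6 and 7 to control 5 was 5.03 for Fh1 and 1.90 for Mdh2.

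Outside the NAD-linked cycle, Aco1 is the cytosolic aconitase and, without its iron-sulfur cluster, an iron regulatory protein. Idh1 and Idh2 are the cytosolic and mitochondrial NADP-dependent isocitrate dehydrogenases, which make NADPH. Idh1 was at 48.3, 508 and 827 CPM in the controls and at 70.4, 64.8 and 68.4 CPM in the treated tumors. The levels in controls 6 and 7 were far above the rest, and control 5 was below all 3 treated tumors. The log2 fold change was -2.76 ± 0.93 with an adjusted p of 0.247. Idh2 was at 78.2, 163 and 179 CPM and at 86.9, 92.1 and 102 CPM (-0.58 ± 0.35, adjusted p = 0.400, positive under library totals). Aco1, in turn, was at 46.9, 193 and 308 CPM and at 49.2, 47.5 and 46.4 CPM (-1.94 ± 0.64, adjusted p = 0.247).

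Among the 7 genes that bring carbon into the cycle or take it out, pyruvate carboxylase (Pcx, ENSMUSG00000024892, on chromosome 19 from 4510472 to 4621752, GRCm38) had the largest difference of the whole list. Its levels were 3.47, 325 and 426 CPM in the controls and 8.06, 5.39 and 6.97 CPM in the treated tumors. Control 5 was the lowest of all libraries and controls 6 and 7 the highest, so the groups overlapped. The log2 fold change was -5.21 ± 1.53 (SE, n = 3 per group, edgeR adjusted p = 0.247), while with control 5 as the only control it was 0.99. ATP-citrate lyase (Acly), which returns exported citrate to cytosolic acetyl-CoA, was at 154, 287 and 486 CPM and at 163, 147 and 156 CPM. Mdh1, the cytosolic malate dehydrogenase of the malate-aspartate shuttle, was at 116, 491 and 794 CPM and at 136, 127 and 150 CPM. Both were high in controls 6 and 7 alone, with log2 fold changes of -0.99 ± 0.44 and -1.76 ± 0.67.

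The malic enzymes, which convert malate to pyruvate, differed in direction. Me1, the cytosolic enzyme that supplies NADPH for lipid synthesis, was at 49.1, 322 and 551 CPM in the controls and at 47.0, 43.8 and 45.1 CPM in the treated tumors, with no overlap and a log2 fold change of -2.76 ± 0.82. The mitochondrial Me2 was at 44.7, 21.2 and 9.47 CPM and at 43.9, 39.4 and 44.8 CPM, low in controls 6 and 7, with a log2 fold change of 0.76 ± 0.53. Me3, also mitochondrial, was at 5.35, 4.66 and 0.969 CPM and at 6.13, 11.9 and 9.57 CPM, the latter group above the former without overlap. Its log2 fold change was 1.31 ± 0.63, and control 7 held 9 counts of it. Pck2, the mitochondrial phosphoenolpyruvate carboxykinase, was at 48.6, 16.7 and 7.43 CPM and at 38.2, 36.0 and 44.1 CPM, so that control 5 was the highest library and controls 6 and 7 the lowest. The adjusted p was 0.247, 0.459, 0.336 and 0.554 for Me1, Me2, Me3 and Pck2 in edgeR. For Me1, 22.9% of stretches of 50 bases occur also in Gm7049 or Gm7329, and 3.89% of the exon sequence of Me3 lies opposite A230065N10Rik. Whether counting used strand is not given in the sources used here.

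All 6 genes of glutamine, glutamate and transamination had negative fold changes, with a median of -2.85 on the log2 scale and 5 of 6 at an unadjusted p under 0.05 (14.6% of all genes lower). In the fit with the hepatocyte score as a covariate, whose limit is given below, the number below that p was 3 (4.40% of all genes lower). It was 6 without control 5 (28.3%), 4 without control 6 (7.27%) and 3 without control 7 (6.8%). Without treated tumors 1, 2 and 5 it was 3, 2 and 3 (6%, 4.78% and 3.17%). Gls2, the liver glutaminase, was at 7.11, 217 and 346 CPM in the controls and at 7.76, 5.0 and 8.01 CPM in the treated tumors. Only controls 6 and 7 were high, and control 5 lay within the treated range. The log2 fold change was -4.78 ± 1.29 with an adjusted p of 0.247 and an unadjusted p of 0.0096 in edgeR. Glutamate dehydrogenase (Glud1), which releases ammonia and 2-oxoglutarate from glutamate, had the highest level per length of the 34 genes in the treated tumors and was at 290, 1378 and 2153 CPM and at 323, 320 and 276 CPM (-2.06 ± 0.73). Stretches of 50 bases shared with the pseudogene Glud-ps or Gm43444 made up 6.49% of its exon sequence.

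The aminotransferases exchange amino groups between glutamate and oxaloacetate (Got1 in the cytosol, Got2 in mitochondria) or pyruvate (Gpt in the cytosol, Gpt2 in mitochondria). Gpt2 was at 33.2, 298 and 482 CPM and at 32.3, 22.7 and 22.8 CPM, and Gpt at 10.7, 129 and 229 CPM and at 12.4, 8.72 and 13.8 CPM. The groups did not overlap for Gpt2, where control 5 lay just above treated tumor 1, and overlapped for Gpt. Log2 fold changes were -3.38 ± 0.92 for Gpt2 and -3.40 ± 1.01 for Gpt, each with an adjusted p of 0.247 in edgeR. Got2 was at 78.0, 412 and 702 CPM and at 84.5, 82.7 and 73.5 CPM (-2.31 ± 0.75), and Got1 at 104, 204 and 256 CPM and at 109, 97.0 and 110 CPM (-0.83 ± 0.36). The mitochondrial form thus showed the wider gap in the Got pair. Of the exon sequence of Got2, 16.8% of stretches of 50 bases are shared with Got2-ps1 and 9.0% lies opposite Gm45760.

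The 3 plasma membrane carriers of glutamine on this list were not highest in controls 6 and 7, unlike most of the enzymes. The enzymes Pck2, Me2 and Me3 were also low in these controls. Slc38a3 and Slc38a4, amino acid carriers outside this list, were high in them. Slc1a5, an exchanger of neutral amino acids, was at 23.0, 10.7 and 4.95 CPM in the controls and at 26.6, 27.9 and 29.8 CPM in the treated tumors. Every treated tumor exceeded every control, and the log2 fold change was 1.12 ± 0.53 (adjusted p = 0.333, unadjusted p = 0.0804 in edgeR). The sodium-coupled carrier Slc38a1 was at 16.3, 10.2 and 6.56 CPM and at 14.2, 17.0 and 18.4 CPM (0.58 ± 0.37). Slc38a2, the stress-regulated carrier of the same family, was at 312, 188 and 216 CPM and at 281, 206 and 201 CPM (-0.06 ± 0.31, positive under library totals and upper quartile scaling), and the values of controls 6 and 7 lay among or below those of the other libraries.

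**Figure D3:**
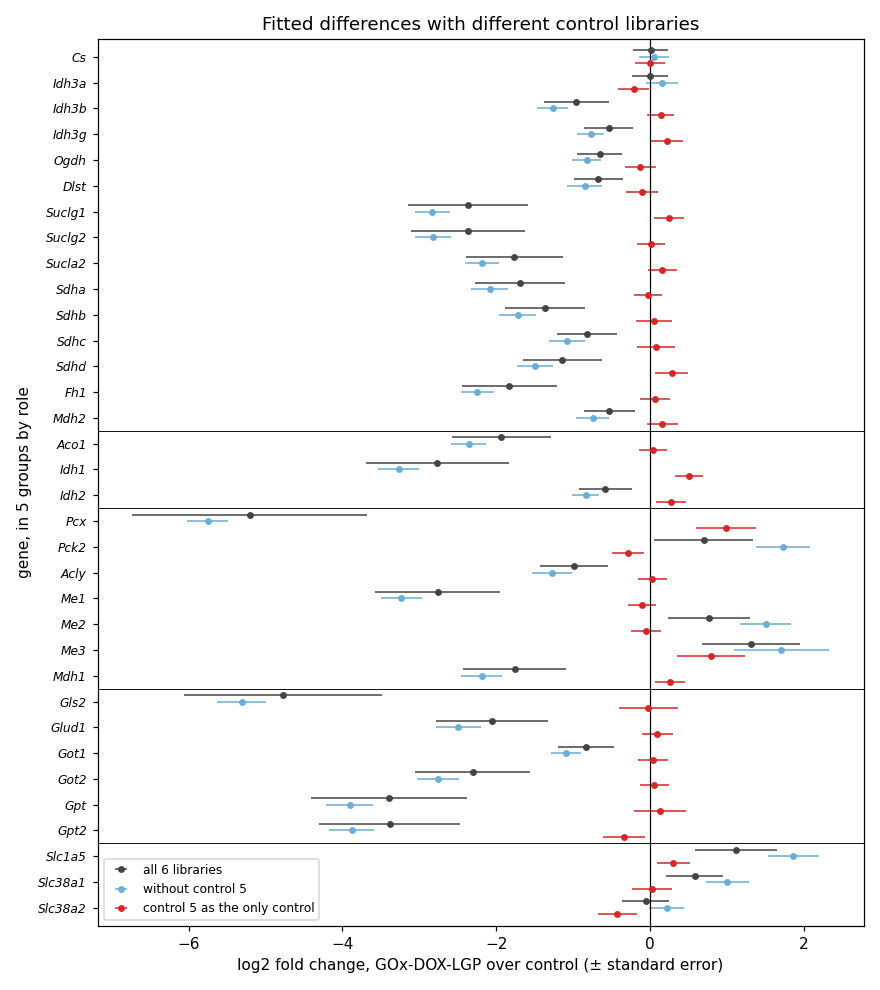
Log2 fold change of treated over control tumors for each of the 34 genes with its standard error, fitted with all 6 libraries, without control 5, and with control 5 as the only control. For Pcx the values are -5.21, -5.75 and 0.99, and with control 5 as the only control the median over the genes is 0.06.

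The result depended on which control libraries were used. Without control 5, 26 genes were lower and 4 higher (Pck2, Me2, Slc1a5 and Slc38a1) at an adjusted p under 0.05 in edgeR, and Cs, Idh3a, Me3 and Slc38a2 did not pass. In this comparison 25.5% of all genes were lower and 22.2% higher, and the median log2 fold change of the 34 genes was -1.39. With control 5 as the only control, an alternative chosen after values had been seen and one in which the lone control is assumed to vary like the treated tumors, 0 genes passed in either direction (0% of all genes lower and 0% higher). At an unadjusted p under 0.05 in the same edgeR fit, Idh1 and Pcx were higher and 0 genes lower, beside 3.18% and 2.29% of all genes, and the median log2 fold change of the 34 genes was 0.06. DESeq2 on all libraries gave 11 genes lower (Suclg1, Suclg2, Aco1, Idh1, Pcx, Me1, Gls2, Glud1, Got2, Gpt and Gpt2) and 0 higher at an adjusted p under 0.05, beside 9.54% and 0.994% of all genes. Limma voom with sample quality weights, which gives less weight to libraries far from their group, gave 26 lower and 5 higher, beside 30.9% and 29.2%.

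A fit with the hepatocyte score as a covariate, the mean log2 CPM of the hepatocyte markers, gave 0 genes at an adjusted p under 0.05 (0% of all genes). At an unadjusted p under 0.05, 5 genes were lower (Suclg2, Me1, Gls2, Gpt and Gpt2) and 0 higher, beside 4.40% and 2.28% of all genes. In this edgeR fit the median log2 fold change of the 34 genes was -0.28. Gls2 was at -1.22, Gpt2 at -1.14 and Pcx at -0.55 on the log2 scale, smaller than their values without the covariate. The score was 4.46, 12.2 and 12.7 in the controls and 6.95, 5.57 and 6.09 in the treated tumors. It thus set controls 6 and 7 apart, as most of the 34 genes did, and the fit cannot tell the score from this split. The 5 genes are therefore not read as lowered beyond the markers. With control 5 as the only control, Gls2 was at -0.024.

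Levels per length, as CPM per kilobase of exon, changed their order between the libraries. In treated tumors the highest were Glud1 at 72.7, Sdhd at 62.5 and Mdh1 at 53.7, and the lowest were Me3 at 0.628, Slc38a1 at 0.958 and Pcx at 1.43. Length was the union of all annotated exons of a gene, at 14.6 kb for Me3, 17.2 kb for Slc38a1 and 4.75 kb for Pcx. The order therefore depends on annotation, and in mean treated CPM Pcx (6.81) was below Me3 (9.19) and Slc38a1 (16.5). Cs ranked 5 of 34 in the treated tumors and in control 5 but 25 in the mean of controls 6 and 7. Idh1 moved the other way, from rank 12 in the treated tumors and 15 in control 5 to 3 in controls 6 and 7, and Gls2 from 31 in both to 11. The ranks of control 5 and the treated tumors differed by little, with Slc38a2 at 6 and 10 and Ogdh at 11 and 15.

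Ratios of counts between related genes within a library do not depend on its scaling. The ratio of Idh1 to Idh2 was 0.617, 3.12 and 4.61 in the controls and 0.810, 0.703 and 0.673 in the treated tumors, and that of Mdh1 to Mdh2 was 1.10, 2.94 and 3.38 and then 1.15, 1.20 and 1.18. Cytosolic over mitochondrial forms were thus highest in controls 6 and 7 in these 2 pairs. Got1 over Got2 went the other way, at 1.33, 0.496 and 0.365 and at 1.29, 1.17 and 1.5, and Gpt over Gpt2 varied less between libraries, at 0.323, 0.432 and 0.474 and at 0.383, 0.384 and 0.605. Me1 over Me2 was 1.10, 15.2 and 58.1 in the controls and 1.07, 1.11 and 1.00 in the treated tumors. Of 7 isoform pairs, the groups were separate for Suclg2 over Sucla2 alone, at 1.37, 2.0 and 1.87 against 1.22, 1.33 and 1.16, with a two-sided exact permutation p of 0.1, the smallest that 3 against 3 libraries allow. For Slc38a1 over Slc38a2 the ratio was 0.0524, 0.0542 and 0.0304 and then 0.0505, 0.0827 and 0.0914, with overlapping groups.

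A further 4 pairs were chosen after values had been seen, so their ratios are given with no test. Idh3a over Idh3b was 1.06, 0.315 and 0.305 and then 0.934, 0.774 and 0.778. Ogdh over Dlst stayed near 1 throughout, at 0.916, 0.975 and 0.825 and at 0.904, 1.07 and 0.766. Sdha over Sdhb was 2.45, 2.95 and 2.99 and then 2.39, 2.78 and 1.91, and Idh3b over Idh3g was 1.82, 2.17 and 2.63 and then 1.85, 1.49 and 1.86.

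**Figure D4:**
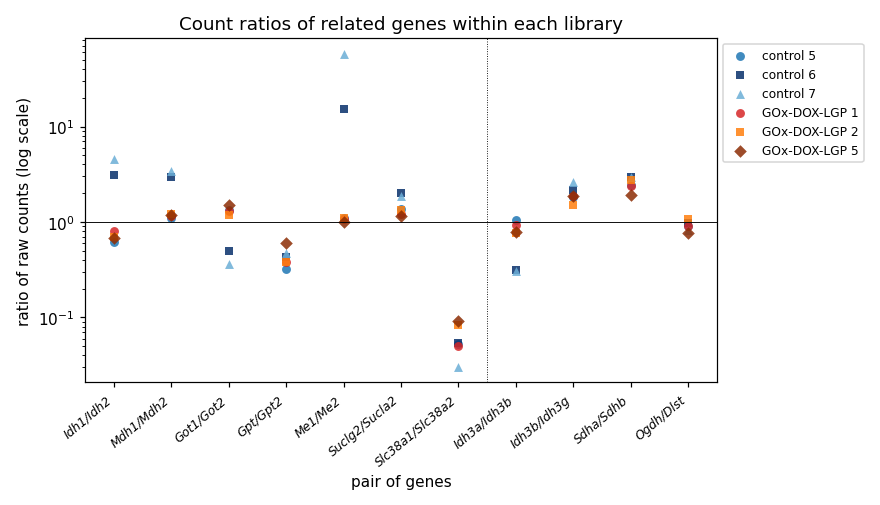
Ratio of raw counts of 11 gene pairs within each library on a log axis, with 1 point per library, a line at 1 and a dotted line before the 4 pairs chosen after values were seen. Controls 6 and 7 stand apart from the other 4 libraries for Idh1/Idh2, Mdh1/Mdh2, Got1/Got2, Me1/Me2 and Idh3a/Idh3b. By smaller margins, they also lie above the other 4 for Suclg2/Sucla2, Sdha/Sdhb and Idh3b/Idh3g.

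Of 34 other genes of the pathway, 31 passed the filter (Ogdhl, Slc25a18 and Slc38a5 did not), and 12 were lower and 0 higher at an unadjusted p under 0.05 in edgeR, with none at an adjusted p under 0.05. Of all genes, 14.6% were lower and 2.87% higher. Without control 5, 16 of the 31 were lower and 11 higher, beside 28.3% and 27.2% of all genes. The number lower was 5 without control 6 (7.27% of all genes) and 4 without control 7 (6.8%). It was 5, 1 and 1 without treated tumors 1, 2 and 5 (6%, 4.78% and 3.17%). The median log2 fold change of the 31 genes was -0.41. The 3 largest negative values belonged to the amino acid carriers Slc38a4 (-6.39 ± 1.92) and Slc38a3 (-6.19 ± 1.92) and the aspartate-glutamate carrier Slc25a13 (-3.24 ± 0.99). Slc38a4 was at 5.31, 1435 and 2329 CPM in the controls and at 23.9, 10.1 and 11.1 CPM in the treated tumors, and Slc38a3 at 4.52, 1286 and 2076 CPM and at 25.7, 9.90 and 10.6 CPM. In both carriers control 5 was the lowest library and controls 6 and 7 the highest. The 3 largest positive values were those of Psat1 (1.09 ± 1.07), Ctps (1.03 ± 0.59) and Asns (1.00 ± 1.14), enzymes of serine, CTP and asparagine synthesis that use glutamate or glutamine. Asns was at 135, 10.7 and 6.56 CPM and at 113, 57.8 and 135 CPM, low in controls 6 and 7 alone.

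**Figure D5:**
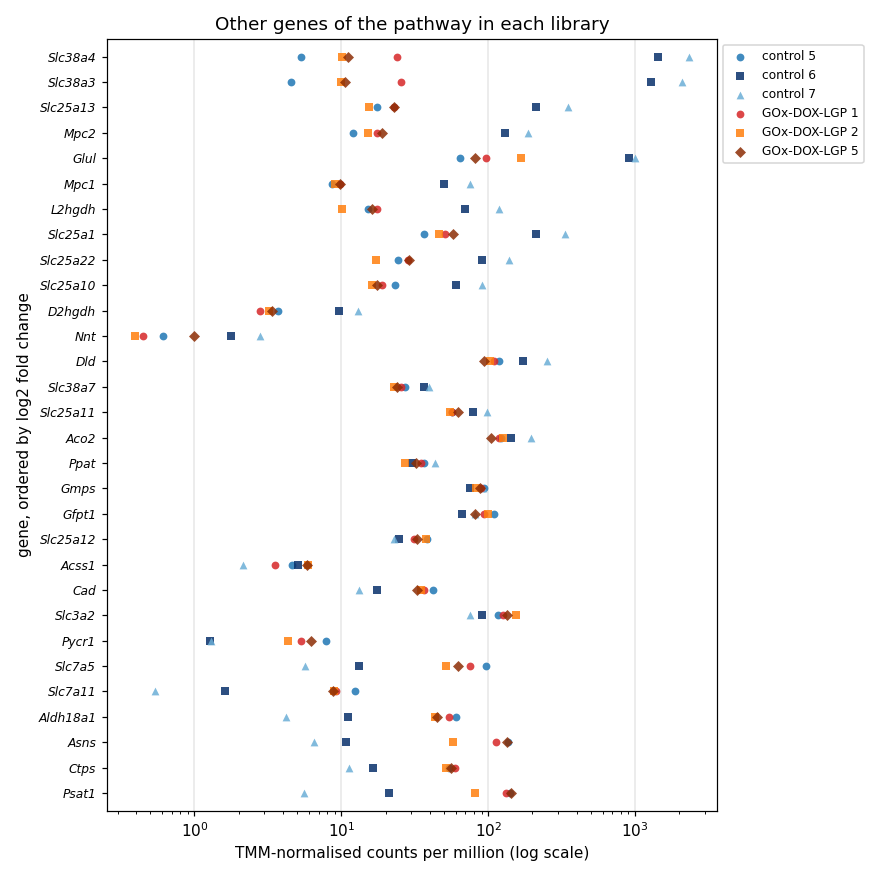
Level of 30 of the other pathway genes that passed the filter, as TMM-normalised CPM on a log axis, with 1 point per library and genes ordered by log2 fold change. Controls 6 and 7 lie to the right of the other 4 libraries in 16 genes (32.9% of all genes), the carriers Slc38a4 and Slc38a3 at the top among them. They lie to the left in 10 (35.4% of all genes).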

How the data were processed

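Tumor RNA of 3 control and 3 GOx-DOX-LGP mice was analysed, grouped and numbered by the labels. The raw counts per gene deposited by the authors are not normalized and not pooled. Sources differ on how they were made. The methods name TopHat and HTSeq, while the submitters' processing notes name Trimmomatic 0.38, HISAT2 2.1.0 and featureCounts 2.0.0. The genome build of the alignment is not given in the sources used here. The deposited signal values (34685 genes) are the same counts divided by 1 size factor per library and were used for gene symbols only.

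The tests on these counts used edgeR 4.0.16 in R 4.3.3 (filterByExpr, TMM, quasi-likelihood test, Benjamini-Hochberg adjustment over 15374 genes, threshold 0.05), limma 3.58.1 and DESeq2 1.42.0, and figures were drawn with Python 3.11.15 and matplotlib 3.10.9. The prior count for log2 CPM was 2. The steps were tested on simulated data. Library totals were 15529940 to 18401178 counts. Gene positions, exon lengths and shared sequence came from GENCODE M21 (GRCm38), a C57BL/6J reference, and motif matches from RefSeq promoters. Nothing in the labels shows a batch, and p-values measure the spread between these mice. No control received a nanogel.

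The 34 genes, the other lists and the tests were chosen with earlier results of these data known. The named genes are the 34 genes, the 3 largest positive and 3 largest negative fold changes among 34 other pathway genes, and Alb, Ttr and Apoa1. A gene of the other pathway list, and a pair with it, is not reported here but is part of the counts over that list. Alternatives were DESeq2, limma voom with sample quality weights, a hepatocyte score covariate, 3 other scalings (upper quartile, library totals, DESeq2 size factors), no filter, and leaving out each library. Gene pairs and control 5 as the only control were in part added after values had been seen, as stated with each result.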

Additional observations from a re-analysis of the deposited data

How the results depend on the processing

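Of the 34 genes, 0 passed an adjusted p of 0.05 with all libraries, 11 with DESeq2 and 31 with limma voom with sample quality weights, and between 0 and 30 when a library was left out, the 30 being without control 5. The 16 genes at an unadjusted p under 0.05 became 10 with library totals, 32 with limma voom and 5 with the hepatocyte score as covariate. When a library was left out, the range was 2 to 31. With the hepatocyte score, 4.40% of all genes were lower and 2.28% higher, and without control 5, which gave the 31, 28.3% and 27.2%. With limma voom, 30.9% of all genes were lower and 29.2% higher even at an adjusted p under 0.05. No share at an unadjusted p is given for library totals or limma voom. The 12 other pathway genes became 7 with library totals, 28 with limma voom and 3 with the hepatocyte score. Their range was 1 to 27 when a library was left out. The 7 genes without overlap became 4 with DESeq2 size factors, with upper quartile scaling and with no filter. Their range was 6 to 31 when a library was left out, and the number was 19 with control 5 as the only control. With a lone control, no overlap means only that control 5 lay outside the range of the treated tumors. After TMM with all libraries, it lay within that range in 45.6% of all genes, so the 19 genes are not read as a difference. No share of all genes without overlap is given for the settings with 4 or 19 genes, nor for leaving out a library other than control 5. Groups of fewer libraries are more often without overlap, so those numbers are not compared with the shares from all libraries. The median fold change of the 34 genes stayed negative in all settings but control 5 as the only control. Causes were not tested.

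The log2 fold change of Cs (0.01) was -0.0011 with DESeq2 size factors, -0.00089 with DESeq2, -0.0043 with control 5 as the only control, 0.53 with library totals and 0.19 with upper quartile, and ran from -0.045 to 0.089 when a library was left out. For Idh3a (-0.00), it was 0.48 with library totals, 0.17 with upper quartile, 0.064 with no filter, 0.41 with limma voom, and -0.17 to 0.16 when a library was left out. Slc38a2 (-0.06) gave 0.38, 0.10, 0.0071 and 0.41 in these settings and -0.21 to 0.21. With library totals, Idh3g was at 0.13, Mdh2 at 0.14 and Idh2 at 0.10, and Idh2 was at 0.0010 with the hepatocyte score. With control 5 as the only control, signs turned to 0.14 for Idh3b, 0.22 for Idh3g, 0.25 for Suclg1, 0.011 for Suclg2, 0.16 for Sucla2, 0.056 for Sdhb, 0.077 for Sdhc, 0.28 for Sdhd, 0.067 for Fh1, 0.16 for Mdh2, 0.040 for Aco1, 0.51 for Idh1, 0.27 for Idh2, 0.99 for Pcx, -0.29 for Pck2, 0.029 for Acly, -0.052 for Me2, 0.26 for Mdh1, 0.096 for Glud1, 0.038 for Got1, 0.057 for Got2 and 0.13 for Gpt. No paired analysis was made, because nothing in the labels pairs a control mouse with a treated mouse.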
